A study of Mus musculus with 4 samples.

Results

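Myc-CaP is a mouse prostate cancer cell line from the Hi-Myc transgenic mouse, in which a MYC transgene is driven in the prostate, on the FVB background. RNA-seq read counts were available for 4 cultures of this line, and the genes described here are the redox enzymes, selenoproteins, NRF2-pathway targets and metal-binding proteins of the table. They were chosen by name and biotype: protein-coding genes of the peroxiredoxin, thioredoxin, glutaredoxin, glutathione, superoxide dismutase, selenoprotein, aldehyde and carbonyl reductase, haem oxygenase, pentose phosphate, ferritin and metallothionein families, with the regulators Nfe2l2, Nfe2l1 and Keap1. Of 52636 genes in the table, 124 matched, and 93 of these had at least 1 library-size-scaled count (CPM) in at least 1 library, among 12351 genes that did so. The other 31 stayed below that level, the highest of them Gsta1 at 0.812 CPM, and the member just above it was Mt2 with a highest value of 1.07 CPM.

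All 4 cultures were Myc-CaP cells with stably introduced short hairpin RNAs. The groups were shFAK with norepinephrine, shFAK with vehicle, shNC with norepinephrine and shNC with vehicle. shFAK carried hairpins against focal adhesion kinase (FAK, gene Ptk2), a kinase of integrin adhesions, and shNC carried a negative control hairpin. Norepinephrine, the sympathetic neurotransmitter, was given at 10 µM for 24 h. Each group had 1 library, so no difference between groups has a replicate check, and each hairpin was represented by a single cell line. An effect of the hairpin therefore cannot be told apart from any other difference between the lines. By its title, the series concerns norepinephrine and loss of FAK in prostate cancer.

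Cells remove peroxides with glutathione and with thioredoxin, and both carriers are reset by reductases that use NADPH. The factor NRF2 (gene Nfe2l2) is held down by KEAP1 and, when released by oxidants or electrophiles, binds antioxidant response elements and raises glutathione synthesis enzymes, thioredoxin reductase, quinone reductase and haem oxygenase. Selenoproteins carry selenocysteine, which ribosomes insert at an in-frame UGA codon that would otherwise end translation, and several of them are peroxidases or reductases whose active site is that residue.

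In the 93 genes, 18 had an annotated selenocysteine codon, 17 with 1 codon and Selenop with 10. The windows below are the reference coding sequence around it, from the GENCODE M21 annotation of GRCm38 (mm10), written 5′ to 3′ on the coding strand with the selenocysteine TGA in capitals. They are shown for the selenoproteins whose levels differed most between the lines, and for peroxidases and a reductase whose levels differed less, so that internal and terminal codons can be compared.
Selenom: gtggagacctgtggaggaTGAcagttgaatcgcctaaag
Selenop: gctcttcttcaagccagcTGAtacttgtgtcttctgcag
Gpx3: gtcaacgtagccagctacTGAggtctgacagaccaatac
Gpx1: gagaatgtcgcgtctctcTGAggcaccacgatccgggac
Gpx4: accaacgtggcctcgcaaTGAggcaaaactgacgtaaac
Selenow: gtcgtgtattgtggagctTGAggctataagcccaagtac
Txnrd1: atcctccagtctggctgcTGAggt
The codon lay at chr11:3516273-3516275 (+) in Selenom, codon 48 of 145, and at chr11:54907256-54907258 (+) in Gpx3, codon 73 of 226. The Selenop window shows the first of its 10 sites, chr15:3274848-3274850 (+), codon 59 of 380, and the other 9 fell between codons 259 and 377. Gpx1 had the codon at chr9:108339451-108339453 (+), codon 47 of 201, Gpx4 at chr10:80054737-80054739 (+), codon 129 of 253, and Selenow at chr7:15920464-15920466 (-), codon 13 of 88. In Txnrd1 it was codon 612 of 613, chr10:82896037-82896039 (+), so that the residue is the last but 1 of the protein. The same terminal place was annotated in Txnrd2 (codon 526 of 527) and Txnrd3 (codon 614 of 615).

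Antioxidant response elements were looked for in RefSeq promoters (GRCm38.p6, 250 bases before to 50 bases after each gene's start) as the core TGACNNNGC on either strand. Of 83 members with a promoter in that set, 14 held the core, 16.9%. The share among all kept genes with a promoter was 17.3% (1525 of 8840), and 14.0% of all genes in the promoter set held it (3781 of 27025). For illustration, 4 of the sites upstream of the start are shown, 1 each from a gene of glutathione synthesis, thioredoxin reduction, peroxide removal and metal binding, with the core in capitals. The 3 sites in Gclm, Txnrd1 and Prdx1 match on the opposite strand.
Gclm: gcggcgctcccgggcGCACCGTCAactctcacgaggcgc
Txnrd1: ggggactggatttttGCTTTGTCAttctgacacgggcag
Prdx1: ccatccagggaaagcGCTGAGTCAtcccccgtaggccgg
Mt2: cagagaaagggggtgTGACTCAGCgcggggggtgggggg
The cores were at chr3:122245423-122245431 in Gclm, chr10:82859114-82859122 in Txnrd1, chr4:116685466-116685474 in Prdx1 and chr8:94172539-94172547 in Mt2, all on genes of the plus strand. A match is a description of the letters and not evidence of binding. The other 10 members with the core were Aldh9a1, G6pdx, Gstm5, Gstm7, Me1, Nfe2l2, Pgd, Selenok, Sod1 and Srxn1. No promoter entry was available for Akr1b3, Aldh1a3, Aldh1l2, Aldh3a1, Aldh7a1, Gclc, Gsr, Gsta4, Hmox1 and Prdx6.

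The 4 libraries held 23410486 to 29948640 counts. Ptk2, the hairpin's target (mm10 chromosome 15, 73205105 to 73423191), had 1248 counts in shFAK norepinephrine and 1294 in shFAK vehicle, against 3158 in shNC norepinephrine and 3547 in shNC vehicle. Its log2 ratio was -1.19 in norepinephrine and -1.29 in vehicle. The labelled cell type was checked against prostate epithelial markers: Krt18, Krt5, Epcam and Cdh1 had at most 15 counts in any library and Pbsn was at 0. Mouse Myc, which does not mark this tissue, had 1132 to 1344 counts. Krt8 had 48 counts in shFAK norepinephrine and 50 in shFAK vehicle, against 165 in shNC norepinephrine and 153 in shNC vehicle. Leukocyte and endothelial markers had at most 5 counts. Of 4 fibroblast markers, 2 were kept, and the summed level of the list was 13.8 CPM in shFAK norepinephrine and 13.5 CPM in shFAK vehicle, against 7.32 CPM in shNC norepinephrine and 9.62 CPM in shNC vehicle; Dcn was at 0 in all libraries and Col1a2 had at most 1 count. The part of these marker shifts in the hairpin differences was not tested. The neural marker Rbfox3 had 1965 to 2204 counts, and Gfap 11 to 21.

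Values below are CPM by library. Ratios between libraries are log2 ratios of CPM scaled by TMM, with exact 99% counting intervals in brackets, which cover counting error only. A gene met the size rule when it differed by at least 1.5-fold and the interval left out 0. The only test the layout allows is an additive model of hairpin and treatment with the edgeR quasi-likelihood test and Benjamini-Hochberg adjusted p over all 12351 genes. It takes the departure from additivity as its spread, with 1 residual degree of freedom, and does not measure variation between cultures. The fit shared that spread over all genes of like abundance, with no weight on a gene's own departure, so its very small p-values hold only if that shared spread fits the gene. In bulk RNA, fewer cells of a type and less RNA per cell cannot be told apart.

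On a scale that corrects for gene length and depth (TPM), the ferritins led. Fth1, the ferritin heavy chain, averaged 4989 TPM over the 4 libraries and ranked 10 among all genes. Ftl1, the light chain, averaged 2639 TPM, and Aldh1a1, the cytosolic retinaldehyde dehydrogenase, 2349 TPM. Thioredoxin itself, Txn1, averaged 1808 TPM, and Sod1, the copper-zinc superoxide dismutase, 1246 TPM. These levels place 4 of the genes among the 100 most abundant in the cells. At the other end, 16 members averaged under 5 TPM.

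Single genes carried most of several groups. Txn1 made up 83.7% of the TPM of the thioredoxin system, Aldh1a1 68.0% of that of the quinone, haem and carbonyl enzymes, and Fth1 58.9% of that of the metal-binding proteins. The 18 genes with a selenocysteine codon summed to 1882 TPM in shFAK norepinephrine and 1825 TPM in shFAK vehicle, against 1825 TPM in shNC norepinephrine and 1741 TPM in shNC vehicle. In the selenoprotein group no gene led: Selenow, a small thioredoxin-fold selenoprotein, held the largest share at 14.7%. All 93 genes took 1.62% and 1.55% of the counts in shFAK norepinephrine and shFAK vehicle, against 1.63% and 1.49% in shNC norepinephrine and shNC vehicle.

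**Figure D1:**
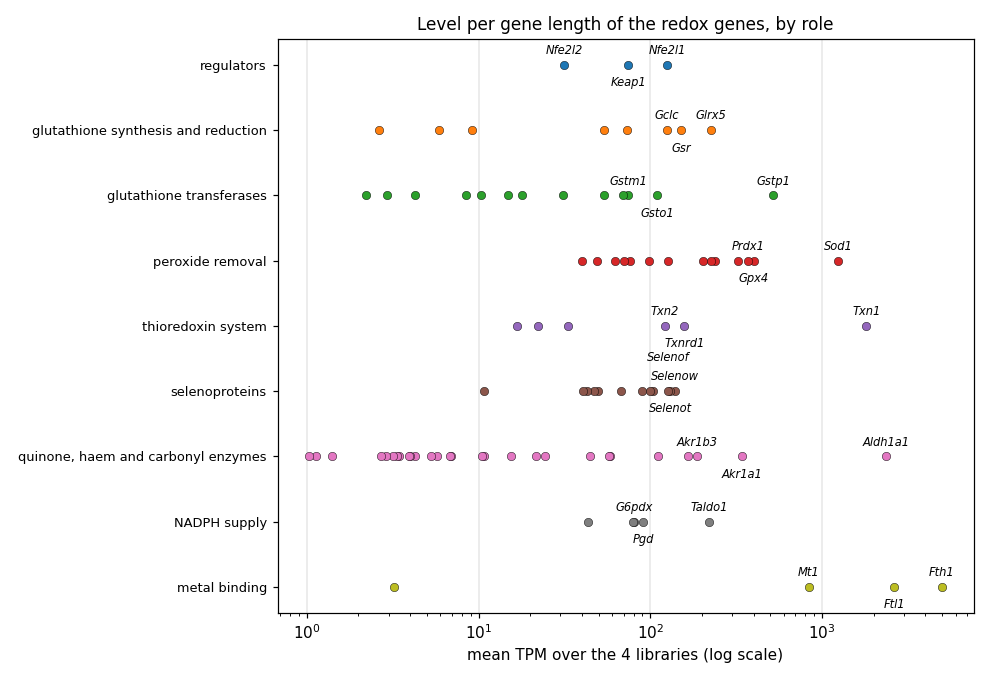
Mean level of each of the 93 genes over the 4 libraries, in TPM on a log scale, with 1 row for each role and the 3 most abundant genes of each role named. Fth1 lies at 4989 TPM and Aldh1a1 at 2349 TPM, while selenoproteins lie closer together, up to 139 TPM for Selenow.

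Between the FAK hairpin and the control hairpin, a few of these genes differed by more than 1.5-fold, and most differed by less. In norepinephrine 8 members were higher in shFAK (8.1% of all kept genes were) and 2 were lower (3.15% of all kept genes were). In vehicle 7 were higher (background 3.69%) and 1 was lower (background 1.6%). In both pairs, which share no library, 6 were higher (2.44% of all genes) and 1 lower (0.834% of all genes). Those 6, Selenop, Gpx3, Aldh1a7, Aldh6a1, Aldh1l2 and Aldh1a3, are 6.45% of the members. The median log2 ratio of the members was -0.12 in norepinephrine and -0.01 in vehicle, beside 0.02 and 0.00 over all kept genes.

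**Figure D2:**
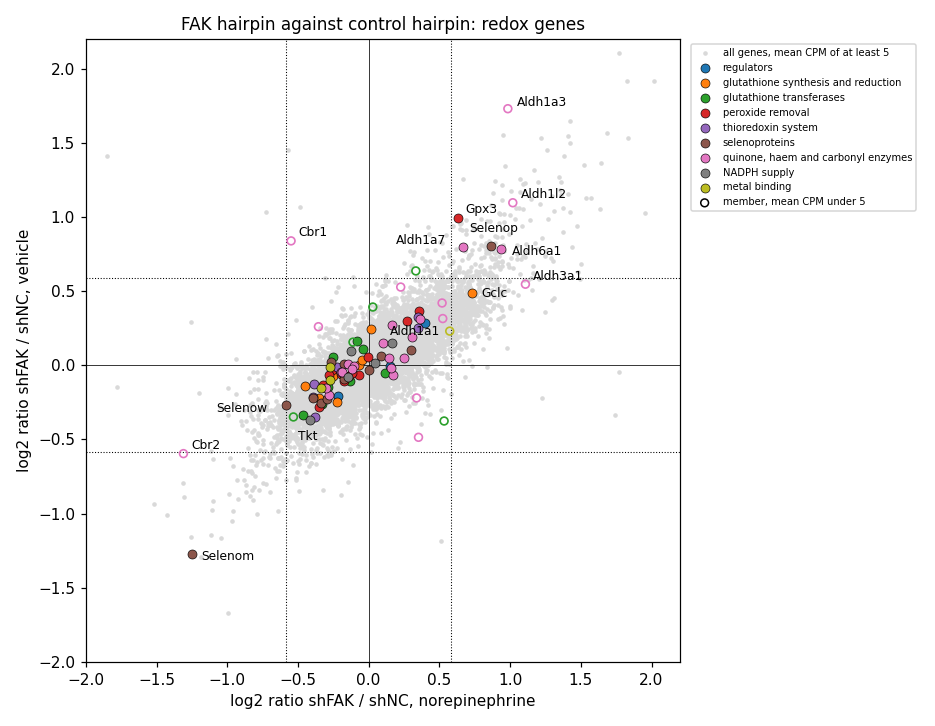
Log2 ratio of shFAK over shNC in norepinephrine (x) and in vehicle (y). Coloured points are the redox genes by role, open where their mean is under 5 CPM, grey points all genes with a mean of at least 5 CPM inside the axes, and dotted lines the 1.5-fold limits. Selenom lies far below and Selenop, Gpx3, Aldh1a7 and Aldh6a1 above the limits in both pairs, and most redox genes lie near the centre.

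The additive model placed more genes past the threshold. It called 14 members higher in shFAK (background 19.5%) and 21 lower (background 16.2%), which are 15.1% and 22.6% of the members. Across all genes the hairpin ratios moved with gene length (Spearman 0.47 in norepinephrine and 0.32 in vehicle), and the members are short, with a median length of 2836 bases beside 3981. Across the members the same correlation was 0.29 and 0.16. After a spline trend of each library on gene length and GC content was removed (the length and GC correction), the model called 14 members higher and 18 lower, and its background was 12% higher and 20.8% lower. Txnrd1, Akr1b8, Fth1, Gpx1, Gsto1, Gstp1, Selenoh, Sod1 and Txn1 lost their call, and Hmox1, Akr1b3, Glrx2, Gss, Pgd and Selenof gained one.

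The selenoproteins moved in both directions. Selenom, an endoplasmic reticulum selenoprotein with a thioredoxin fold, had 18.5 CPM in shFAK norepinephrine and 13.7 CPM in shFAK vehicle, against 41.5 CPM in shNC norepinephrine and 32.2 CPM in shNC vehicle. Both shFAK values lie below both shNC values, and no other member met the size rule for a lower level in both treatments. The log2 ratio was -1.247 [-1.46 to -1.04] in norepinephrine and -1.272 [-1.51 to -1.05] in vehicle, and the additive difference was -1.26 ± 0.10 (SE; adjusted p = 2.17e-33, edgeR quasi-likelihood test).

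Selenop, the secreted protein that carries selenium between tissues and is the member with 10 selenocysteine codons, had the largest difference in the other direction among the 12 genes of the selenoprotein group, which leaves out the peroxidases and reductases. It had 60.1 CPM in shFAK norepinephrine and 51.0 CPM in shFAK vehicle, against 31.1 CPM in shNC norepinephrine and 28.4 CPM in shNC vehicle. The groups did not overlap, and the log2 ratio was 0.86 [0.70 to 1.03] in norepinephrine and 0.80 [0.64 to 0.97] in vehicle (additive adjusted p = 2.42e-17, edgeR quasi-likelihood test). The antisense gene Ccdc152 shares 15.4% of the exon bases of Selenop, and the library kit does not mark strand, so reads of that stretch cannot be assigned to either.

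Selenow had 33.2 CPM in shFAK norepinephrine and 30.7 CPM in shFAK vehicle, against 46.9 CPM in shNC norepinephrine and 36.0 CPM in shNC vehicle. Its log2 ratio was -0.58 [-0.76 to -0.41] in norepinephrine and -0.27 [-0.45 to -0.10] in vehicle, under the 1.5-fold limit in both, and the additive model called it lower (adjusted p = 5.34e-05, edgeR quasi-likelihood test). The norepinephrine ratio lay close to that limit and met the size rule under 5 of 15 alternatives. After the length and GC correction the ratios were -0.32 and -0.10, and the call stayed. Selenoh, a nucleolar selenoprotein, Selenok, an endoplasmic reticulum membrane protein, and Sephs2, the enzyme that makes selenophosphate for selenocysteine synthesis, were called lower as well. Their log2 ratios without correction were -0.40, -0.29 and -0.34 in norepinephrine and -0.22, -0.23 and -0.26 in vehicle. Of the 12 genes in this group, 1 rose and 5 fell in the additive model, beside 19.5% and 16.2% of all genes. Selenot, Selenof, Selenon, Selenos, Selenoo and Selenoi had ratios from -0.27 to 0.30 and did not pass. The length and GC correction ended the call of Selenoh and brought one for Selenof, at -0.34 and -0.17.

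**Figure D3:**
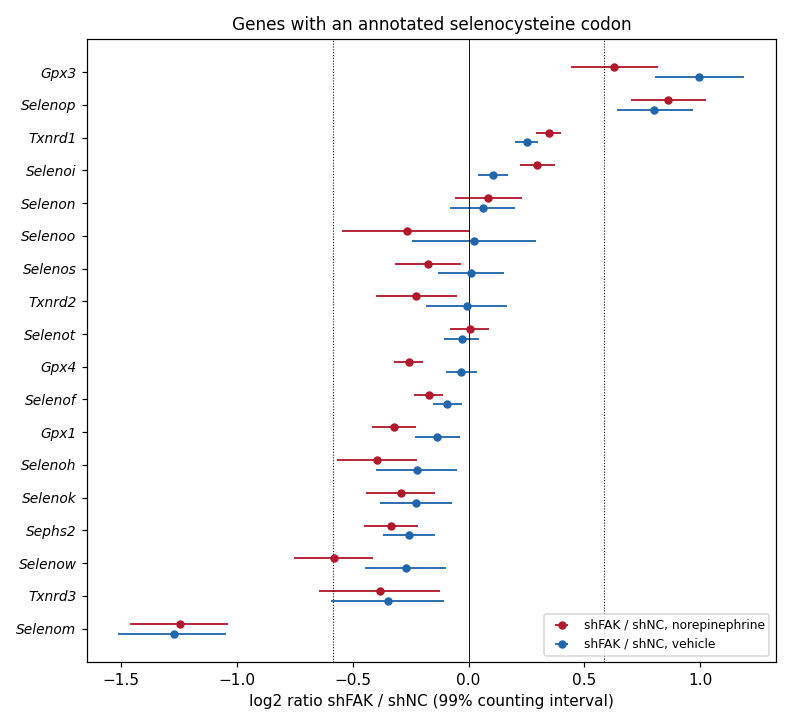
Log2 ratio with 99% counting interval of the genes with an annotated selenocysteine codon, for shFAK over shNC in norepinephrine and in vehicle. Selenom is the lowest at -1.247 and -1.272, and Selenop and Gpx3 are the highest.

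Of the 14 genes that remove superoxide and peroxides, 3 rose and 3 fell in the additive model, beside 19.5% and 16.2% of all genes. In both pairs 1 met the size rule for a higher level, beside 2.44% of all genes. Gpx3, the secreted glutathione peroxidase of plasma, had 40.1 CPM in shFAK norepinephrine and 41.0 CPM in shFAK vehicle, against 24.4 CPM in shNC norepinephrine and 19.9 CPM in shNC vehicle. The shFAK values lie above both shNC values, and the log2 ratio was 0.63 [0.44 to 0.82] in norepinephrine and 0.99 [0.81 to 1.19] in vehicle (additive adjusted p = 4.48e-15, edgeR quasi-likelihood test). Without a filter on low counts its norepinephrine ratio was 0.58, just under the 1.5-fold limit.

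The intracellular selenium peroxidases did not share this. Gpx1, the cytosolic glutathione peroxidase, had 112 CPM in shFAK norepinephrine and 106 CPM in shFAK vehicle, against 132 CPM in shNC norepinephrine and 113 CPM in shNC vehicle, and fell in the additive model (adjusted p = 0.0302, edgeR quasi-likelihood test), a call lost after the length and GC correction. Gpx4, which reduces lipid peroxides in membranes, had log2 ratios of -0.26 in norepinephrine and -0.03 in vehicle and did not pass. Catalase, Cat, which splits hydrogen peroxide, had 42.4 CPM in shFAK norepinephrine and 42.8 CPM in shFAK vehicle, against 31.2 CPM in shNC norepinephrine and 32.3 CPM in shNC vehicle. Its shFAK values lie above both shNC values, with log2 ratios of 0.35 and 0.36 (additive adjusted p = 0.000834, edgeR quasi-likelihood test). Srxn1, the sulfiredoxin that repairs over-oxidised peroxiredoxins, also rose, with log2 ratios of 0.27 in norepinephrine and 0.30 in vehicle.

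The 6 peroxiredoxins had log2 ratios from -0.35 to 0.00 in norepinephrine and from -0.28 to 0.05 in vehicle. Prdx5, found in mitochondria and peroxisomes, was the one called lower, with 74.7 CPM in shFAK norepinephrine and 62.6 CPM in shFAK vehicle, against 89.7 CPM in shNC norepinephrine and 73.8 CPM in shNC vehicle. The values of shFAK norepinephrine and shNC vehicle are nearly equal, so the groups overlap in CPM, and the gap is within each treatment. Another gene, Trmt112, shares 19.1% of the exon bases of Prdx5. Sod1 was called lower (log2 ratios -0.33 and -0.15; adjusted p = 0.0211, edgeR quasi-likelihood test) and Sod2, the mitochondrial manganese enzyme, was not (-0.12 and -0.05). The length and GC correction brought Sod1 to -0.07 and 0.00 and ended its call.

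In glutathione synthesis the 2 subunits of glutamate-cysteine ligase, the rate-limiting enzyme, differed from each other. Gclc, the catalytic subunit, had 210 CPM in shFAK norepinephrine and 197 CPM in shFAK vehicle, against 119 CPM in shNC norepinephrine and 136 CPM in shNC vehicle. Both shFAK values are above both shNC values, with a log2 ratio of 0.73 [0.65 to 0.82] in norepinephrine and 0.49 [0.41 to 0.57] in vehicle (additive adjusted p = 1.74e-10, edgeR quasi-likelihood test), and the size rule was met in norepinephrine. The difference between these log2 ratios was 0.25, under the 1.5-fold limit.

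Gclm, the modifier subunit, had 125 CPM in shFAK norepinephrine and 121 CPM in shFAK vehicle, against 122 CPM in shNC norepinephrine and 114 CPM in shNC vehicle. Its log2 ratio was -0.04 [-0.14 to 0.05] in norepinephrine and 0.03 [-0.06 to 0.13] in vehicle. The TPM ratio of Gclc to Gclm was 2.80 in shFAK norepinephrine and 2.73 in shFAK vehicle, against 1.63 in shNC norepinephrine and 1.995 in shNC vehicle. Gclm has near-identical stretches in 14 other annotated genes, and how reads that map to several places were counted was not given in the sources used here.

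Of the other genes of this group, Gss, glutathione synthetase, and Gsr, glutathione reductase, did not pass, with log2 ratios of -0.22 and -0.07 in norepinephrine and -0.25 and 0.00 in vehicle; Gss was called lower when corrected. The iron-sulfur glutaredoxins Glrx5 and Glrx3 were called lower. Glrx5, a mitochondrial protein, had 282 CPM in shFAK norepinephrine and 261 CPM in shFAK vehicle, against 362 CPM in shNC norepinephrine and 279 CPM in shNC vehicle, and its ratio was -0.45 in norepinephrine and -0.14 in vehicle. The norepinephrine libraries of the lines thus lay further apart than the vehicle libraries.

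The 3 regulators of the pathway differed by less than 1.5-fold. The additive model called 1 higher and 1 lower, beside 19.5% and 16.2% of all genes. Nfe2l2 itself had 45.3 CPM in shFAK norepinephrine and 43.9 CPM in shFAK vehicle, against 38.4 CPM in shNC norepinephrine and 42.8 CPM in shNC vehicle. Its log2 ratio was 0.15 [-0.01 to 0.31] in norepinephrine and -0.01 [-0.16 to 0.15] in vehicle. Nfe2l1, the related factor NRF1 that controls proteasome genes, had 266 CPM in shFAK norepinephrine and 281 CPM in shFAK vehicle, against 190 CPM in shNC norepinephrine and 224 CPM in shNC vehicle, with all shFAK values above all shNC values. It was called higher (additive log2 difference 0.34 ± 0.09, SE; adjusted p = 0.000602, edgeR quasi-likelihood test). Keap1 was called lower at adjusted p = 0.0447 (edgeR quasi-likelihood test), with log2 ratios of -0.22 and -0.21, and 10.9% of its exon bases are shared with an antisense gene.

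Among the classical NRF2 targets, Nqo1, the quinone reductase, was close to absent, with 1 count in shFAK norepinephrine, 0 in shFAK vehicle, 0 in shNC norepinephrine and 1 in shNC vehicle. Hmox1, the inducible haem oxygenase, had 16.8 CPM in shFAK norepinephrine and 16.6 CPM in shFAK vehicle, against 12.8 CPM in shNC norepinephrine and 14.2 CPM in shNC vehicle. The shFAK values are the higher ones, yet the additive difference did not pass (0.25 ± 0.11, SE; adjusted p = 0.0547, edgeR quasi-likelihood test). It was called higher after the length and GC correction (0.45 and 0.25) and with library size alone. Txnrd1, the cytosolic thioredoxin reductase, had 446 CPM in shFAK norepinephrine and 444 CPM in shFAK vehicle, against 330 CPM in shNC norepinephrine and 362 CPM in shNC vehicle. Its log2 ratio was 0.35 [0.29 to 0.40] in norepinephrine and 0.25 [0.20 to 0.30] in vehicle (adjusted p = 0.00264, edgeR quasi-likelihood test). After the length and GC correction these ratios were 0.13 and 0.15, and the model no longer called the gene.

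So of the 6 targets looked at, Gclc, Srxn1 and Txnrd1 were called higher in shFAK, Gclm and Hmox1 were not called, and Nqo1 was below the level kept. After the length and GC correction the called ones were Gclc, Srxn1 and Hmox1. Of all kept genes, 19.5% were called higher and 16.2% lower without the correction, and 12% and 20.8% with it. Of 33 further genes of the NRF2 pathway and of glutathione handling, 30 were kept. In the additive model 5 rose and 5 fell, beside the same 19.5% and 16.2% of all genes. Slc7a11, the cystine importer that feeds glutathione synthesis, had 28.7 CPM in shFAK norepinephrine and 30.3 CPM in shFAK vehicle, against 15.3 CPM in shNC norepinephrine and 16.8 CPM in shNC vehicle. Its log2 ratio was 0.82 in norepinephrine and 0.81 in vehicle, and 0.41 and 0.59 after the length and GC correction. Abcc4, a multidrug efflux pump, and Bach1, a repressor at antioxidant response elements, were also called higher. Abcc4 had ratios of 0.67 in norepinephrine and 0.44 in vehicle. Bach1 had 0.60 [0.34 to 0.87] in norepinephrine, 0.42 when corrected, and 0.22 [-0.003 to 0.45] in vehicle. Maff, a small MAF partner of NRF2, was called lower, with ratios of -0.47 and -0.52.

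In the thioredoxin system 2 of 6 genes rose and 3 fell in the additive model, beside 19.5% and 16.2% of all genes. Txnrd1 rose, as did Txnip, the inhibitor of thioredoxin, with log2 ratios of 0.35 in norepinephrine and 0.32 in vehicle. Txn1 had 653 CPM in shFAK norepinephrine and 613 CPM in shFAK vehicle, against 803 CPM in shNC norepinephrine and 649 CPM in shNC vehicle, with ratios of -0.39 and -0.13. The mitochondrial thioredoxin Txn2 (-0.39 and -0.21) and the testis-type reductase Txnrd3 (-0.38 and -0.35) fell too. Without correction, the carrier and its cytosolic reductase had opposite signs, both within 1.5-fold. After the length and GC correction Txn1 was at -0.18 and -0.01 and Txnrd1 at 0.13 and 0.15, and both lost their call.

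The aldehyde dehydrogenases were the family with the most size-rule genes. Of 12 kept members, 6 rose and 0 fell in the additive edgeR model, beside 19.5% and 16.2% of all genes, and 4 met the size rule in both pairs. A DESeq2 Wald test called 3 higher (Aldh1a7, Aldh3a2 and Aldh6a1), beside 7.38% of all genes. By either tool 0 were lower at an unadjusted p under 0.05, with no count of all genes at that level. Of the 12, 11 had ratios above 0 in norepinephrine and 8 in vehicle. The median log2 ratio of the family was 0.36 in norepinephrine and 0.42 in vehicle. The members range from 2349 TPM for Aldh1a1 to 1.03 TPM for Aldh1a3.

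Aldh1a7, a close relative of Aldh1a1, had 159 CPM in shFAK norepinephrine and 146 CPM in shFAK vehicle, against 94.0 CPM in shNC norepinephrine and 81.3 CPM in shNC vehicle. The groups did not overlap, with log2 ratios of 0.67 [0.57 to 0.77] in norepinephrine and 0.80 [0.70 to 0.90] in vehicle (additive adjusted p = 1.31e-14, edgeR quasi-likelihood test). Aldh1a1 lies 49491 bases away on chromosome 19 and is far more abundant, with 4348 CPM in shFAK norepinephrine and 4417 CPM in shFAK vehicle, against 3826 CPM in shNC norepinephrine and 3857 CPM in shNC vehicle. Its log2 ratios were 0.10 and 0.15, and it was not called, except with library size alone. The TPM ratio of Aldh1a1 to Aldh1a7 was 11.5 in shFAK norepinephrine and 12.7 in shFAK vehicle, against 17.1 in shNC norepinephrine and 19.9 in shNC vehicle, so the neighbours differed in unequal measure. Neither had a near-identical copy by the definition used.

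Aldh6a1, the mitochondrial methylmalonate semialdehyde dehydrogenase of valine breakdown, had 59.9 CPM in shFAK norepinephrine and 55.2 CPM in shFAK vehicle, against 29.4 CPM in shNC norepinephrine and 31.1 CPM in shNC vehicle. The shFAK values lie above both shNC values, with ratios of 0.94 [0.78 to 1.11] in norepinephrine and 0.78 [0.63 to 0.94] in vehicle (additive adjusted p = 1.1e-18, edgeR quasi-likelihood test). The antisense gene Bbof1 shares 18.6% of its exon bases. Aldh3a2, the fatty aldehyde dehydrogenase, was called higher at ratios of 0.36 and 0.31.

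At low levels, and named here after their values were seen, Aldh1l2, the mitochondrial formyltetrahydrofolate dehydrogenase, had 84 counts in shFAK norepinephrine and 119 in shFAK vehicle, against 45 in shNC norepinephrine and 61 in shNC vehicle. Its ratios were 1.02 [0.35 to 1.78] and 1.095 [0.53 to 1.74], and 14.1% of its exon bases are shared with another gene. Aldh1a3, a retinaldehyde dehydrogenase, had 57 counts in shFAK norepinephrine and 64 in shFAK vehicle, against 31 in shNC norepinephrine and 20 in shNC vehicle, with stretches matching 39 other genes. Aldh3a1 had 72 and 48 counts in shFAK norepinephrine and shFAK vehicle, against 36 in shNC norepinephrine and 36 in shNC vehicle, and met the size rule in norepinephrine only. The other size-rule genes at low counts were Gstt3 (higher in vehicle, 0.64) and Cbr2, a carbonyl reductase (lower in norepinephrine, -1.31).

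**Figure D4:**
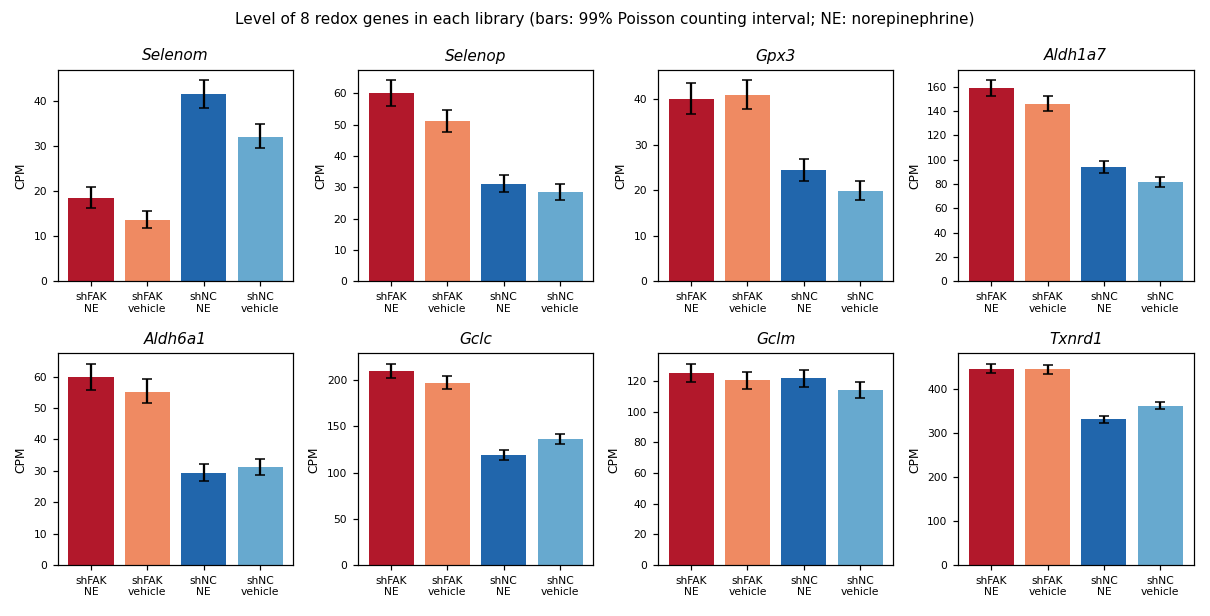
CPM of 8 redox genes in each of the 4 libraries, as bars with the 99% Poisson counting interval, with shFAK norepinephrine, shFAK vehicle, shNC norepinephrine and shNC vehicle side by side. Selenom is lower in both shFAK libraries, Selenop, Gpx3, Aldh1a7, Aldh6a1 and Gclc are higher, Txnrd1 is higher by less, and Gclm is near level.

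The other reductases and transferases moved less, and in the additive model 19.5% of all genes were called higher and 16.2% lower. Of the 13 glutathione transferases, 0 were called higher in shFAK. At an unadjusted p under 0.05, edgeR had 1 higher and a DESeq2 Wald test 0, with no count of all genes at that level. Gstp1, Gstm5 and Gsto1 were called lower. Gstp1, the most abundant of them, had 145 CPM in shFAK norepinephrine and 114 CPM in shFAK vehicle, against 172 CPM in shNC norepinephrine and 132 CPM in shNC vehicle. Its ratios were -0.33 and -0.26, they were -0.07 and -0.09 after the length and GC correction, and 2 other genes hold near-identical stretches of it. Of these lower calls the correction left Gstm5, and Gsto1 was then at -0.17 and -0.11. Of the 9 aldo-keto reductases, Akr1b8 was called lower (-0.28 and -0.20), and the others did not pass. The correction exchanged these: Akr1b8 was not called, and Akr1b3, the aldose reductase, was called lower at -0.42 and -0.12.

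Of 5 genes that supply NADPH, Tkt, the transketolase of the pentose phosphate pathway, fell, where 16.2% of all genes were called lower. It had 190 CPM in shFAK norepinephrine and 182 CPM in shFAK vehicle, against 239 CPM in shNC norepinephrine and 228 CPM in shNC vehicle, with ratios of -0.42 [-0.49 to -0.34] and -0.37 [-0.44 to -0.30] (adjusted p = 6.87e-05, edgeR quasi-likelihood test). G6pdx, the first enzyme of the pathway, had ratios of 0.17 and 0.15 and was not called, nor were Pgd, Taldo1 and Me1. Pgd was called lower after the length and GC correction (-0.34 and -0.17), and G6pdx was called higher when libraries were scaled by size alone. Of the 4 metal-binding genes, Fth1 was called lower (-0.34 and -0.15) and Ftl1, Mt1 and Mt2 were not. The call of Fth1 was lost after the length and GC correction, where its ratios were -0.10 and -0.02.

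A pair of further lists set these values beside their pathways. Of 14 genes for selenocysteine insertion and selenium handling, 11 were kept, 2 rose and 1 fell, beside 19.5% and 16.2% of all genes called higher and lower. Selenbp1, a selenium-binding methanethiol oxidase, had 33.96 CPM in shFAK norepinephrine and 25.8 CPM in shFAK vehicle, against 18.1 CPM in shNC norepinephrine and 17.6 CPM in shNC vehicle (ratios 0.82 and 0.51). Trnau1ap, a protein that binds the selenocysteine tRNA, fell (-0.53 and -0.49), and Lrp8, a receptor for selenoprotein P, was called higher (0.40 and 0.09), though after the length and GC correction its ratios were 0.06 and -0.06, with the sign turned in vehicle. Of 20 metal homeostasis genes, 15 were kept, 6 rose and 1 fell, also beside the 19.5% and 16.2%. Among them Slc30a2, a vesicular zinc transporter, had ratios of 0.75 and 0.83, and Atp7a, the copper-exporting ATPase, 1.498 and 0.682.

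Norepinephrine against vehicle gave smaller differences. By the size rule 1 member was higher in shFAK (background 1.27%) and 0 were lower (background 0.429%). In shNC 3 were higher (background 1.56%) and 0 lower (background 2.15%), and in both lines 0 were higher (0.154% of all genes) and 0 lower (0.0891%). All 4 of these members were at low counts: Aldh3a1 in shFAK, and Cbr1, Gsta4 and Gstm7 in shNC.

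The members leaned to small positive ratios. In shFAK 71 of 93 were above 0 and in shNC 77 of 93, with medians of 0.06 and 0.18 beside 0.00 and 0.00 for all kept genes. The ratios moved with gene length across all genes (Spearman -0.29 in shFAK and -0.49 in shNC) and across the members (-0.28 and -0.51), and the members are the shorter genes. After the length and GC correction, 61 and 72 were above 0, with medians of 0.05 and 0.14 beside -0.02 and 0.01.

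The additive model called 11 members higher with norepinephrine (background 5.04%) and 0 lower (background 7.29%). These were Ftl1, Glrx5, Gpx4, Gsta4, Gstp1, Mgst2, Mt1, Prdx5, Selenok, Selenom and Selenow. After the length and GC correction 3 were called, Mgst2 and Selenok of these and Cbr4, at a background of 1.45%. At an unadjusted p under 0.05 edgeR had 27 members higher and 1 lower. A DESeq2 Wald test called 1 higher, Gstp1 (background 0.194%), and 0 lower (background 0.51%). It had 13 higher and 1 lower at an unadjusted p under 0.05. All genes were not counted at that unadjusted level, so the unadjusted counts of both tools have no background.

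**Figure D5:**
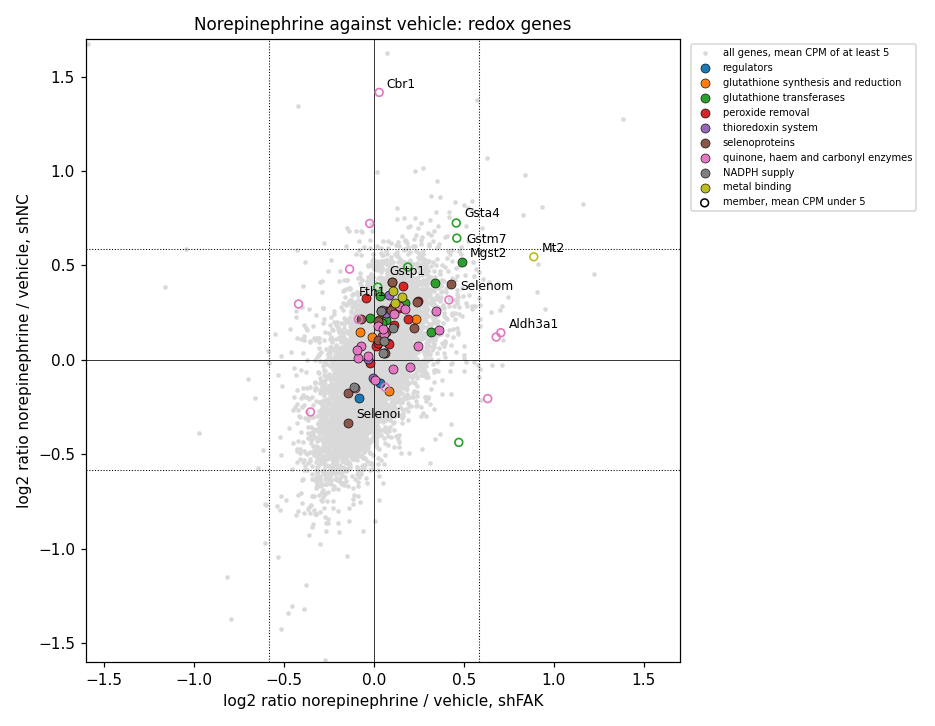
Log2 ratio of norepinephrine over vehicle in shFAK (x) and in shNC (y), with points and lines as in the plot of hairpin ratios. Most redox genes lie above 0 in shNC, Mgst2 lies near 0.5 in both lines, and no member is past the 1.5-fold limit in both.

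Mgst2, a microsomal glutathione transferase that also makes leukotriene C4, had a similar ratio in both lines. It had 22.8 CPM in shFAK norepinephrine against 16.1 CPM in shFAK vehicle, and 23.5 CPM in shNC norepinephrine against 16.8 CPM in shNC vehicle. Both norepinephrine values lie above both vehicle values, with log2 ratios of 0.49 [0.25 to 0.74] in shFAK and 0.52 [0.30 to 0.74] in shNC (additive adjusted p = 5.11e-05, edgeR quasi-likelihood test). Gstp1 had ratios of 0.34 in shFAK and 0.41 in shNC (adjusted p = 0.000824, edgeR quasi-likelihood test) and Selenom 0.43 and 0.40 (adjusted p = 0.00123, edgeR quasi-likelihood test). After the length and GC correction, Gstp1 was at 0.21 and 0.19 and Selenom at 0.26 and 0.18.

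Several abundant members had the larger ratio in shNC, with no difference past 1.5-fold. Fth1 had 1507 CPM in shFAK norepinephrine against 1381 CPM in shFAK vehicle, and 1797 CPM in shNC norepinephrine against 1490 CPM in shNC vehicle. Its ratio was 0.12 [0.09 to 0.15] in shFAK and 0.30 [0.28 to 0.33] in shNC. Mt1, a metallothionein that binds zinc and copper, had ratios of 0.11 in shFAK and 0.37 in shNC, and Txn1 0.08 and 0.34. Gpx4 had 0.16 in shFAK and 0.39 in shNC, and Glrx5 0.10 and 0.41. The correction brought Fth1 to 0.09 and 0.17, Mt1 to 0.04 and 0.20, and Gpx4 to -0.06 and 0.14, with the sign turned in shFAK. Selenoi, the ethanolamine phosphotransferase of phospholipid synthesis, had the opposite sign, -0.14 in shFAK and -0.33 in shNC, and did not pass (adjusted p = 0.0506, edgeR quasi-likelihood test).

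Without correction, the metal homeostasis genes outside the member list moved the other way, and the part of the length trend in this was not tested. Of 15 kept, 1 rose and 6 fell with norepinephrine, beside 5.04% and 7.29% of all genes. The ratios of 2 of them, both zinc transporters, shrank on correction, in shNC to -0.24 for Slc30a4 (uncorrected -0.38) and to -0.30 for Slc39a10 (uncorrected -0.45). Atp7a had 20.3 CPM in shFAK norepinephrine against 26.2 CPM in shFAK vehicle, and 6.70 CPM in shNC norepinephrine against 15.8 CPM in shNC vehicle. Cp, the ferroxidase ceruloplasmin, had log2 ratios of -0.62 in shFAK and -0.48 in shNC. In the NRF2 and glutathione list 1 of 30 rose, beside the 5.04% of all genes. That was Blvrb, a biliverdin reductase, with 0.35 in shFAK and 0.71 in shNC.

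The response to norepinephrine in shFAK minus that in shNC was below 0 for 65 of 93 members and for 5883 of all 12351 genes. The median was -0.08 beside 0.01 for all genes. These values were not corrected for gene length and GC. The length trend over all genes was stronger in shNC (Spearman -0.49) than in shFAK (-0.29), and its part in this lean was not tested. By the size rule 0 members had a larger response in shFAK (background 0.996%) and 1 a smaller one (background 0.648%). That was Cbr1, a carbonyl reductase, named after its values were seen, with 37 counts in shFAK norepinephrine and 40 in shFAK vehicle, against 61 in shNC norepinephrine and 24 in shNC vehicle. The difference was -1.39 on the log2 scale, with a 99% interval of -2.62 to -0.15, and rests on the 24 counts of 1 library. The difference has no test, since the layout leaves no residual degree of freedom for it.

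Some of the genes lie side by side. On chromosome 3, between 107895821 and 108044894, 5 Gstm genes had hairpin ratios from -0.53 to 0.11 in norepinephrine and from -0.35 to 0.39 in vehicle. The ends rest on Gstm7 and Gstm4, with 42 to 94 counts, whose intervals include 0, and on Gstm1 at 0.11 [-0.05 to 0.28]. Gstm5 was the one whose intervals left out 0, at -0.46 [-0.74 to -0.19] and -0.34 [-0.62 to -0.06]. On chromosome 13 the Akr1c genes and Akr1e1, 5 in all, ranged from -0.36 to 0.52 in norepinephrine and from -0.22 to 0.42 in vehicle, each with an interval that includes 0. Mt1 and Mt2, 5514 bases apart on chromosome 8, differed in level by a TPM ratio of 167 to 370. Mt2 had 13 to 25 counts, and 73.5% of its exon bases are shared with an antisense gene.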

How the data were processed

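The authors deposited raw read counts for each gene in a single table that also lists position, gene length and biotype. The submitters' processing notes name HISAT2 2.0.5 and featureCounts 1.5.0-p3, with mm10 as the build. Per the labels' protocols the libraries came from a NEBNext Ultra kit. Which annotation release was used, how strand was set and how multi-mapping reads were treated is not given in the sources used here. There were 0 unused per-sample columns.

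From the deposited counts, TMM library sizes were computed with edgeR 4.0.16 in R 4.3.3, and genes reaching 1 CPM in any library were kept. Log2 ratios used a prior count of 2, exact 99% Clopper-Pearson intervals and a 1.5-fold threshold. The interval of the difference of responses used the normal approximation. Since the libraries carry no molecular identifiers, PCR copies were counted as reads, which the intervals do not cover. The additive model was fitted with the edgeR quasi-likelihood test at an adjusted p under 0.05. TPM used the deposited gene length. Near-identical copies were found with minimap2 2.31 on GENCODE M21 transcripts (identity of 95% or more, 100 matching bases or more). Exon overlaps of at least 10% were found for 20 members, and the text gives only some. Overlaps not given above include 36.4% for Sephs2, 34.6% for Ftl1, 19.4% for Txnip, 15.4% for Gss, 13.9% for Gstm5 and 13.6% for G6pdx. Coordinates of genes are those of the deposited table.

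Named genes were Ptk2; members meeting the size rule in both hairpin pairs, in both norepinephrine pairs or in the difference, at a mean CPM of at least 5; the regulators and classical targets; in each role the 3 with the highest TPM and the 2 with the largest hairpin ratios; and up to 4 of each further list. Genes outside that rule are counts of 5 or fewer, or were chosen after their values were seen. The members and lists were chosen with earlier results of these data known. Computations were tested on simulated data. Alternatives were other scalings (raw library size, upper quartile, size factors of DESeq2 1.42.0), filters, prior counts of 0.5 and 10, 2 other fold limits, length and GC trends (a spline with 5 degrees of freedom), other tests, and leaving out genes with a copy. After the data had been seen, a mean CPM of at least 5 and leaving out overlapping genes were added. Some of the marker genes examined are not reported here.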

Additional observations from a re-analysis of the deposited data

How the results depend on the processing

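No paired analysis was possible because each group had 1 library. Counts are of members meeting the size rule or called, of 93 unless given. A fold limit of 2 left 4 for the hairpin in norepinephrine, 3 in vehicle, 2 in both, and for norepinephrine 0 in shFAK and 1 in shNC. A limit under 1.5 gave 30, 14 and 13 for the hairpin, 5 in shFAK, 15 in shNC, 3 in both lines, and 2 for the difference of responses. Keeping genes that reach 5 CPM (77 members) and, chosen after seeing the data, a mean CPM of at least 5 (76) each gave 6 for the hairpin in norepinephrine, 5 in vehicle, and 0 for norepinephrine in shFAK; for shNC they gave 1 and 0, and for the difference 0. Leaving out members sharing at least 10% of exon bases, also chosen then, left 4 in vehicle and 4 in both hairpin pairs. For norepinephrine in shFAK, library size alone, upper-quartile factors and no filter gave 2 each, and the length correction 0; that correction left 1 in shNC. The difference gave 2 with library size alone, after the length correction and after the length and GC correction, and 0 with a prior count of 10. For the hairpin in the additive model a DESeq2 Wald test called 16, 8 higher and 8 lower (background 7.38% and 6.15%). An edgeR test against 1.2-fold called 9, 7 higher and 2 lower (background 6.44% and 2.86%). For norepinephrine these tests called 1 and 0 (in the last, 6 members had an unadjusted p under 0.05). Library size alone called 6, no filter 4, the length and GC correction 3, and leaving out members with a copy 7. These calls were all higher, beside 0.194%, 0.34%, 2.48%, 0.367%, 1.45% and 5.04% of all genes, in that order. The other 136 counts and medians moved less than 1.5 times or less than their spread. Library size alone moved the median of all genes to 0.11 in the norepinephrine hairpin pair and put 44 and 51 members above 0 in the hairpin pairs, beside 38 and 43. The additive hairpin calls were then 19 higher and 14 lower, beside 23% and 9.41% of all genes. Each ratio of a named gene was compared under each alternative, the other fold limits included, so 1 ratio can count several times. Of these comparisons 3826 kept their standing by the size rule, 33 no longer met it and 56 newly met it. In 0 of them did a ratio that met it change sign. The cause of these moves was not tested. With 1 library per group, counting error is the sole error measured, and members with few counts are the least certain.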
